A study of Mus musculus with 2 samples.

Results

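10 genes that mark dendritic cells were read on 2 Agilent microarrays, 1 from splenic monocytes of mice with a 5/6 nephrectomy (5/6Nx) and 1 from splenic monocytes of sham-operated mice. The genes are Zbtb46, Flt3, Batf3, Xcr1, Clec9a, Itgae, Cd24a, Cd209a, Clec10a and Siglech. They were taken by symbol from the probe annotation, which gave 10 of 24813 named genes and 21 probes. Both groups were of the outbred ICR stock, with no genotype or drug given in the labels, and CD11b and Ly6C antibodies served to sort the cells 8 weeks after the operation. A 5/6 nephrectomy leaves a small remnant of kidney and models chronic kidney disease. How many mice were pooled, if any, is not stated in the labels. Each group has 1 array and therefore no replicate error or test, and the number of arrays limits the precision. "Higher" and "lower" describe these 2 arrays.

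Dendritic cells take up antigen, move to lymphoid tissue and present the antigen to T cells. In mouse spleen the conventional dendritic cells fall into a cross-presenting type, cDC1, which depends on the transcription factor BATF3, and a type that depends on other factors such as IRF4, cDC2. Plasmacytoid dendritic cells (pDC) are a separate lineage known for making type I interferon. The 10 genes comprise lineage-wide genes (Zbtb46, Flt3), cDC1 genes (Batf3, Xcr1, Clec9a, Itgae, Cd24a), genes of cDC2 and monocyte-derived cells (Cd209a, Clec10a) and a pDC gene (Siglech).

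The 10 genes did not move in one direction. Batf3 and Itgae were far higher on the 5/6Nx array, Clec10a was far lower and Cd24a was lower by a smaller margin. Zbtb46 and Clec9a were well above background in 5/6Nx monocytes only, Cd209a was so on the sham array only, and Xcr1 was so on neither. Flt3 and Siglech differed by less than 2-fold, but the Siglech value comes from a probe that shares a run of bases with probes of other genes, as given below. Probe by probe, 14 of the 21 probes passed background on the 5/6Nx array and 12 on the sham array, and 11 did so on both. Of all non-control spots, 67.0% passed it on the 5/6Nx array and 63.0% on the sham array.

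Each intensity below is the processed scanner signal in arbitrary units. Differences are 5/6Nx minus sham in log2 units, after each array was scaled to its 75th percentile, which was an intensity of 547.5 on the 5/6Nx array and 442.1 on the sham array. A gene counts as measured where a probe was well above background on both arrays, and is represented by its brightest such probe. The software called 67.0% of 59305 non-control spots well above background on the 5/6Nx array and 63.0% on the sham array. Repeated spots of a probe gave a difference with an SD of 0.0775 (285 probes with at least 8 spots). The scanner software's own error, 10.1% of the signal at the median on each array, is given beside the members' differences. Both cover the array reading alone and leave out the animals, the sort and the labelling. Across all 15715 measured genes the median difference was -0.12. It was -0.27 when arrays were scaled to their medians and 0.26 when they were scaled to 8 spike-in probes, so small differences below depend on the scaling.

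**Figure D1:**
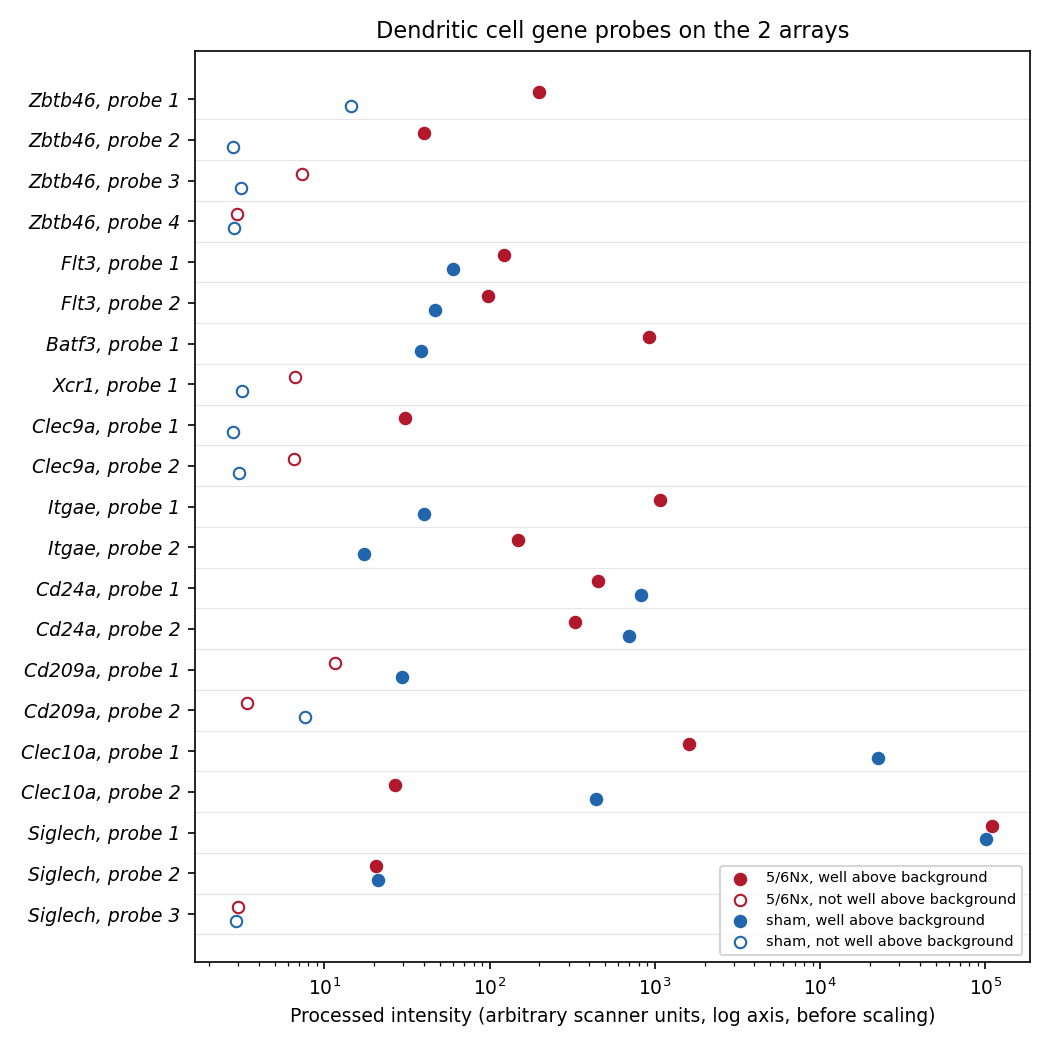
Processed intensity (arbitrary scanner units, log axis, before scaling) of the 21 probes of the 10 genes, with the 5/6Nx array in red above the sham array in blue. Filled points are well above background and open points are not. Batf3 and Itgae have their 5/6Nx points far to the right, Clec10a has them far to the left, and the points of the brightest Siglech probe, at 109449 on the 5/6Nx array and 101444 on the sham array, nearly coincide.

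Zbtb46 encodes a zinc finger transcription factor that marks conventional dendritic cells and their committed precursors. Its brightest probe (chr2:181146404-181146463, mm9, minus strand) had an intensity of 199.2 on the 5/6Nx array and 14.5 on the sham array, where it was not well above background. The second probe had 40 on the 5/6Nx array and 2.79 on the sham array. Both probes were thus detected in 5/6Nx monocytes alone. Taken as bounds, the brightest probe was 11.1-fold higher in 5/6Nx monocytes and the second at least 2.53-fold higher. These bounds set the bright value against the lowest signal called well above background on the sham array, an intensity of 12.8, or against the probe's own signal where that is higher. For the brightest probe the own sham signal was the higher, so its bound is the observed ratio, 3.47 on the log2 scale (software error 0.36). That bound shrank to 1.53 under the alternative background correction. The remaining 2 Zbtb46 probes, at 7.29 and 2.96 on the 5/6Nx array and 3.12 and 2.85 on the sham array, were not well above background on either, so the detection rests on 2 of 4 probes.

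Flt3 encodes the receptor for FLT3 ligand, the growth factor that drives dendritic cell development. Its brightest probe (chr5:148142576-148142635, mm9, minus strand) read 122.8 on the 5/6Nx array and 60.1 on the sham array. The other probe read 98.3 on the 5/6Nx array and 46.7 on the sham array. Both probes were brighter on the 5/6Nx array, with differences of 0.72 (1.65-fold, software error 0.22) and 0.77. Under the spike-in scaling Flt3 came to 1.10, past 2-fold, and with the alternative background correction it came to 0.32. Among all measured genes 2788 (17.7%) had a difference as high as that of Flt3 or higher.

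Batf3 encodes a basic leucine zipper factor required for cDC1 development, and it is also expressed in activated T cells. Its only probe lies at chr1:192932528-192932587 (mm9, plus strand). The 30 bases at the 3′ end of this probe identify what was read.
Batf3: cacactcaggagtttccctacacacctgtg
This probe had an intensity of 919.1 on the 5/6Nx array and 38.3 on the sham array. The 5/6Nx array was 19.4-fold higher, a difference of 4.28 with a software error of 0.24. The sham reading was dim but well above background. Among measured genes 213 (1.36%) had a difference as high or higher. The alternatives gave 2.96 to 4.66.

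Itgae encodes the integrin alpha chain CD103, which pairs with integrin beta 7 and binds E-cadherin. It is carried by many cDC1 and also by epithelium-associated and regulatory T cells. Both of its probes cross an intron, spanning 1459 and 986 bases of chromosome 11, and they are shown whole because they read spliced RNA at 2 places of the transcript.
Itgae, chr11:72959105-72960563 (mm9, plus strand): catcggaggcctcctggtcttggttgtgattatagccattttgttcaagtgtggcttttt
Itgae, chr11:72945236-72946221 (mm9, plus strand): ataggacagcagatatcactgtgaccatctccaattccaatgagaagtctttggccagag
The first probe read 1072 on the 5/6Nx array and 40.1 on the sham array. The second read 147.9 on the 5/6Nx array and 17.4 on the sham array. Both were brighter on the 5/6Nx array, the first 21.6-fold (4.43, software error 0.22) and the second 6.86-fold (2.78, software error 0.31). The probes thus shared the direction and differed in size by more than the software error. Among measured genes 198 (1.26%) had a difference as high as that of the first probe or higher. The difference of the gene was 3.61 with the mean over both probes and 3.15 with the alternative background correction. Over all alternatives it stayed within 3.15 to 4.81, the highest under the spike-in scaling. The second probe alone came to 1.18 under the alternative background correction.

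Batf3 and Itgae were dim on the sham array, and of 2992 genes whose dimmer intensity was under 50, 20.3% were higher by 2-fold or more and 10.1% lower by 2-fold or more. Genes of other cells that carry Itgae or Batf3 differed as well. Of the 10 T cell marker genes, 9 were measured and 8 were higher by 2-fold or more. Their median difference was 5.50 (4.41 to 5.88 over the alternatives). Summed over the 9 measured genes, signal was 70.5 times the array's 75th percentile on the 5/6Nx array and 3.47 times on the sham array. This sum and those below cover only genes measured on both arrays. Thy1, a surface protein of T cells, stood at 6.47 and Cd3g, a chain of the T cell receptor complex, at 6.31. Cd8a, which cDC1 also carry, was detected on the 5/6Nx array only, at 787.8 against 3.43 on the sham array. Of 8 natural killer cell genes, 3 were measured and higher by 2-fold or more, and the other 5 passed background in 5/6Nx monocytes only. The 3 measured genes had summed signals of 21.6 on the 5/6Nx array and 0.626 on the sham array. The part of T cells and natural killer cells in the readings of Batf3 and Itgae was not tested. In RNA from a bulk sort, more cells of a type and more RNA per cell cannot be told apart.

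Xcr1 encodes the chemokine receptor by which cDC1 respond to XCL1. Its single probe (chr9:123761482-123761541, mm9, minus strand) read 6.61 on the 5/6Nx array and 3.18 on the sham array. It was not well above background on either array, and no fold is given.

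Clec9a encodes a lectin receptor with which cDC1 sense dead cells. One of its probes (chr6:129372492-129372551, mm9, plus strand) read 30.6 on the 5/6Nx array and 2.81 on the sham array, and was well above background in 5/6Nx monocytes only. It was at least 1.93-fold higher there. The other probe, at 6.52 on the 5/6Nx array and 3.03 on the sham array, was not well above background on either. The bound shrank to 0.12 on the log2 scale under the alternative background correction.

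Cd24a encodes a heavily glycosylated surface protein found on cDC1 and also on B cells, neutrophils and immature erythroid cells. Its brighter probe (chr10:43303932-43303991, mm9, plus strand) read 454.1 on the 5/6Nx array and 821.4 on the sham array. The other probe read 326.4 on the 5/6Nx array and 698.5 on the sham array. Both were dimmer on the 5/6Nx array, with differences of -1.16 (2.24-fold lower, software error 0.20) and -1.41 (2.65-fold lower). Under the spike-in scaling the brighter probe came to -0.78, short of 2-fold, and the other to -1.03. Cd24a therefore went opposite to Batf3 and Itgae, which are cDC1 genes as well.

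Cd209a encodes a lectin of the DC-SIGN family found on dendritic cells of monocyte origin. Its brighter probe (chr8:3743481-3743540, mm9, minus strand) read 11.6 on the 5/6Nx array, where it was not well above background, and 29.6 on the sham array. It was at least 2.67-fold lower in 5/6Nx monocytes. The other probe, at 3.4 on the 5/6Nx array and 7.64 on the sham array, was not well above background on either. The readings lie close to the background, and the bound was -0.56 on the log2 scale under the alternative background correction.

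Clec10a encodes a galactose-binding lectin (MGL1 in mouse) of dendritic cells and macrophages. Its probes lie at chr11:69984232-69984291 and chr11:69981437-69981496 (mm9, plus strand), and the 30 bases at their 3′ ends are shown because they carry the largest difference downward among the 10 genes.
Clec10a, brighter probe: tgtgatattttgtacagtgtgcagcttatt
Clec10a, other probe: aactcaaggatcgaggagaaaacccaagag
The brighter probe read 1601 on the 5/6Nx array and 22415 on the sham array. The other probe read 26.9 on the 5/6Nx array and 442.8 on the sham array. All 4 readings were well above background. The brighter probe was 17.3-fold lower on the 5/6Nx array (-4.12, software error 0.20) and the other 20.4-fold lower (-4.35, software error 0.26). Among measured genes 54 (0.344%) had a difference as low as that of the brighter probe or lower. For the gene the alternatives gave -4.26 to -3.74, and for the other probe alone the alternative background correction gave -2.80. Mgl2, the closest paralog of Clec10a in mouse, read 22080 on the 5/6Nx array and 7721 on the sham array, a difference of 1.21 in the opposite direction. Whether the probes keep such paralogs apart was not tested.

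Siglech encodes a sialic acid-binding receptor that marks mouse pDC and signals through the adaptor DAP12. Its brightest probe (chr7:63034088-63034147, mm9, plus strand) read 109449 on the 5/6Nx array and 101444 on the sham array. The second probe read 20.5 on the 5/6Nx array and 21 on the sham array. The last probe, at 2.98 on the 5/6Nx array and 2.93 on the sham array, was not well above background on either. The differences of the measured probes were -0.20 (software error 0.20) and -0.34 (software error 0.38), neither larger than its error. The first turned to 0.18 under the spike-in scaling and 0.06 under quantile normalization, so Siglech has no settled direction here.

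The brightest Siglech probe holds a run of 15 bases, at its positions 16 to 30 from the 5′ end, that 12 probes of 12 other genes also hold on the same strand. The run is in capitals below, with 30 bases of the Siglech probe and of the 3 brightest of those other probes on the sham array.
Siglech, chr7:63034088-63034147 (mm9, plus strand): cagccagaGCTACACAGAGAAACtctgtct
Elk1, chrX:20510521-20510580 (mm9, minus strand): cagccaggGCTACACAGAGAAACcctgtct
Glrx2, chr1:145596708-145596767 (mm9, plus strand): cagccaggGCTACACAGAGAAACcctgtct
Med16, chr10:79357669-79357728 (mm9, minus strand): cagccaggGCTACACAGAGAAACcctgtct
The Elk1 probe read 322686 on the 5/6Nx array and 319929 on the sham array. The Glrx2 probe read 297545 on the 5/6Nx array and 285347 on the sham array. The Med16 probe read 226053 on the 5/6Nx array and 236686 on the sham array. Of the 12 probes, 7 were over 50000 on both arrays, with differences of -0.37 to 0.14, where 207 of all 56603 probes (0.366%) were that bright. The dimmest of the 12 was the Cd276 probe, at 46.8 on the 5/6Nx array and 99.8 on the sham array. The run also stood in 24 of 32851 RefSeq promoter windows on either strand (0.0731%). Counting any run of 15 bases on either strand, the brightest Siglech probe shared a run with 36 probes of other genes. By that count no other member probe shared a run with more than 2. The part of the run in capitals in the reading of the brightest Siglech probe was not tested. Without this probe Siglech rests on the second probe and the median of the 6 measured genes was 0.19.

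Over the 10 genes, 6 were measured on both arrays. Of these, 2 (Batf3 and Itgae) were higher by 2-fold or more, where 12.3% of all measured genes (1926 of 15715) were, and 2 (Cd24a and Clec10a) were lower by 2-fold or more, where 10.9% (1719) were. The median difference of the 6 was 0.26, beside -0.12 over all measured genes, and it was 0.72 over the 5 without Siglech and also 0.72 with the 3 genes that have only a bound set at their bounds. Of 17746 genes above background on an array, 8.99% were so on the 5/6Nx array only, as 2 of the 9 such dendritic cell genes were, and 2.36% on the sham array only, as 1 of the 9 was. Among all genes at least 2-fold apart, 52.8% were higher. That share was 40.8% under scaling to the median and 77.3% under the spike-in scaling.

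**Figure D2:**
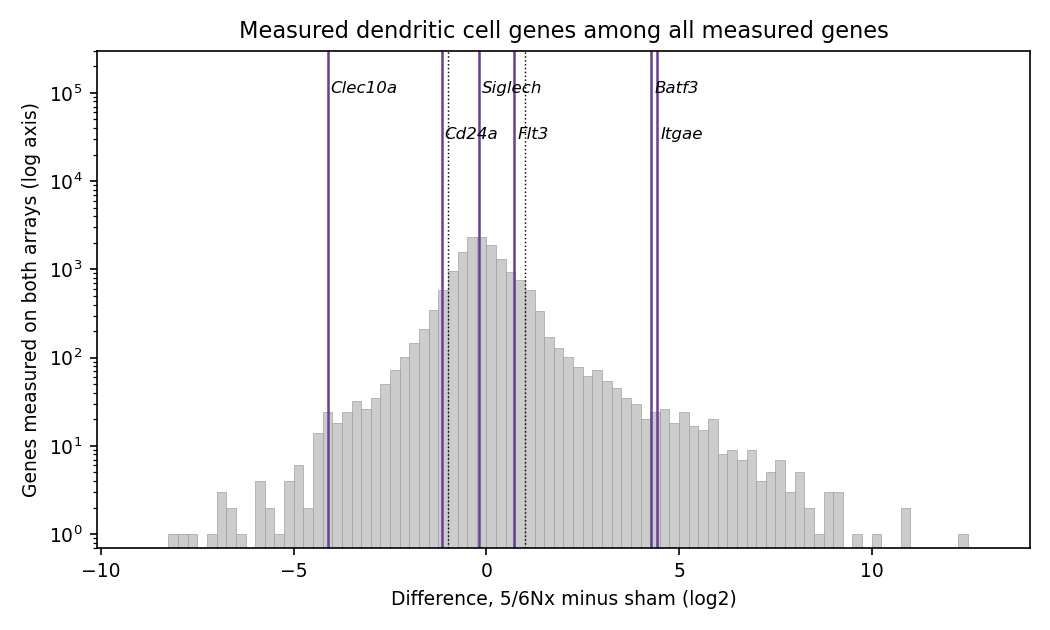
Histogram of the difference, 5/6Nx minus sham (log2, horizontal axis), of all 15715 genes measured on both arrays (vertical log axis), with purple lines at the 6 measured dendritic cell genes and dotted lines at a 2-fold difference. Batf3 (4.28) and Itgae (4.43) lie in the right tail, Clec10a (-4.12) in the left tail, and Siglech (-0.20) near the middle. The Siglech value is that of its brightest probe, which shares a run of bases with probes of other genes.

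**Figure D3:**
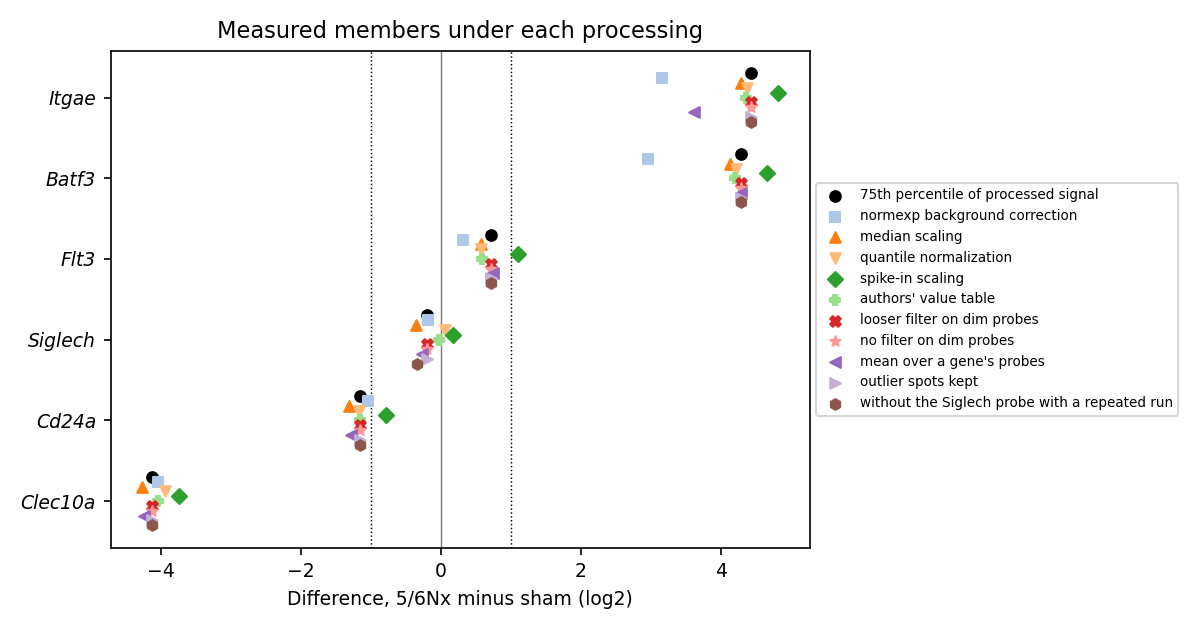
Difference, 5/6Nx minus sham (log2), of the 6 measured dendritic cell genes under the reported processing (black circle) and each alternative (other symbols), with dotted lines at a 2-fold difference. Itgae, Batf3 and Clec10a stay far outside the dotted lines, Flt3 passes 2-fold at 1.10 and Cd24a falls short of it at -0.78 under spike-in scaling, and Siglech lies on both sides of 0.

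Genes known to work with the 10 were set beside them. Lists overlap, as Irf4, Irf8, Mgl2, Siglecg, Csf1r, Cd4 and Cd8a each stand in more than 1 of the lists described here. Among 11 ligands and partner proteins, 8 were measured, of which 2 were higher and none lower by 2-fold or more. Flt3l, the ligand of FLT3, read 1085 on the 5/6Nx array and 233.2 on the sham array, a difference of 1.91. Xcl1, the ligand of XCR1 made by natural killer and T cells, read 2177 on the 5/6Nx array and 5.72 on the sham array, where it was not well above background, so that it was at least 137.6-fold higher. The ligand of XCR1 was thus detected on an array where the receptor was not. Csf2, the cytokine GM-CSF, read 370.8 on the 5/6Nx array against 4.56 on the sham array (at least 23.4-fold higher). Cdh1, the E-cadherin bound by CD103, read 99.5 on the 5/6Nx array against 3.09 on the sham array (at least 6.29-fold higher). Like Xcl1, both were above background in 5/6Nx monocytes only.

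Itgb7, the beta chain that pairs with CD103, read 5603 on the 5/6Nx array and 6301 on the sham array, a difference of -0.48. The 2 chains of this integrin therefore differed unequally. Among the receptor chains of GM-CSF, Csf2rb stood at 1.04 and Csf2ra at -0.25. Csf1r, the receptor of the monocyte growth factor CSF1, stood at -0.26. Tyrobp, which encodes DAP12, stood at -0.90, the kinase gene Syk at 0.14 and Siglecg, an inhibitory Siglec, at 0.85. Probes of Syk disagreed in sign, from -0.56 to 0.24. Those of Flt3l ranged from 1.14 to 2.12 and those of Csf2rb from 0.10 to 1.04. The spike-in scaling adds 0.38 to every difference, which turns the sign of Csf2ra and Csf1r. The median of the 8 was -0.05, and it turned to 0.33 under the spike-in scaling, 0.21 under quantile normalization and 0.06 in the authors' value table. It was 0.49 with the looser filter and 0.85 with no filter on dim probes, which add genes to the list's measured members.

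Of 7 genes for BATF and IRF partners, all were measured, 4 higher and 1 lower by 2-fold or more, with a median of 1.57. Batf2, a relative of Batf3, read 19282 on the 5/6Nx array and 296.1 on the sham array (5.72). Irf4, a transcription factor that binds DNA with BATF proteins, read 846.7 on the 5/6Nx array and 32.1 on the sham array (4.41). Batf itself stood at 1.66 and Junb, a JUN family partner, at 1.57. Irf8, which cDC1 require, stood at 0.24.

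Among 15 cDC1 genes beyond the members, 12 were measured, 4 higher and 3 lower by 2-fold or more, with a median of 0.44. Ly75, the endocytic receptor DEC-205, read 905.5 on the 5/6Nx array and 17.4 on the sham array (5.39). Naaa, a lysosomal acid amidase, stood at 1.65. Cadm1, an adhesion molecule of cDC1, read 271.3 on the 5/6Nx array and 5284 on the sham array (-4.59), and Rab7b, a vesicle GTPase, stood at -1.81. The cDC1 genes therefore split in both directions, as the members Itgae and Cd24a did. Tlr11 and Cd207 were not well above background on either array.

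All 13 cDC2 genes were measured, 7 higher and 1 lower by 2-fold or more, with a median of 1.21. Clec12a, an inhibitory lectin, read 22599 on the 5/6Nx array and 489.9 on the sham array (5.22). Irf4 stood at 4.41, as given above, and Clec7a, the beta-glucan receptor Dectin-1, at 3.29. Esam, an adhesion molecule of a splenic cDC2 subset, read 21.7 on the 5/6Nx array and 301.7 on the sham array (-4.10). Esam was thus lower, as Clec10a was, while most of this list was higher.

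Of 13 pDC genes, 10 were measured, 3 higher and none lower by 2-fold or more, with a median of 0.38 that ranged from 0.09 to 0.85 over the alternatives. The 3 were Irf7 (7.41), Bst2 (5.70) and Lair1 (3.12), of which Irf7 and Bst2 are also known as interferon-induced genes in many cell types. Ccr9, a chemokine receptor, stood at 0.85. Ly6d, Spib and Cox6a2 were above background in 5/6Nx monocytes only. The other pDC genes measured lay under 2-fold. Siglech did so too, but its value comes from the probe that shares a run of bases with probes of other genes.

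Of 13 maturation and migration genes, 11 were measured and 10 were higher by 2-fold or more, with a median of 2.77. Probes of Relb, counted among the 10, ranged from -0.29 to 2.51. Those of Cd80, which was under 2-fold, ranged from -0.24 to 1.19. Cd40, a costimulatory receptor, read 3179 on the 5/6Nx array and 43.8 on the sham array (5.87). Il4i1, a secreted amino acid oxidase, stood at 5.51. Fscn1, an actin-bundling protein of mature dendritic cells, read 488.1 on the 5/6Nx array and 20.3 on the sham array (4.28). Ccr7, the receptor that guides dendritic cells to lymph nodes, read 8085 on the 5/6Nx array and 382.9 on the sham array (4.09). The chemokine genes Ccl17 and Ccl22 were above background in 5/6Nx monocytes only. Some of these genes are also expressed by activated B cells, macrophages and monocytes.

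Of 13 lectin and Siglec paralogs of the members, 9 were measured, 3 higher by 2-fold or more and none lower by that margin, with a median of 0.83. The median was 0.14 under the alternative background correction and 0.09 with no filter on dim probes. Siglecf was above background on the sham array only, at 6.14 on the 5/6Nx array against 18.3 on the sham array (at least 1.66-fold lower in 5/6Nx monocytes). Siglec1, a macrophage receptor, read 6718 on the 5/6Nx array and 200.2 on the sham array (4.76). Mgl2 stood at 1.21, Cd33 at 1.13 and Siglecg at 0.85. Cd209b, Cd209c and Cd209e, relatives of Cd209a, were not well above background on either array.

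**Figure D4:**
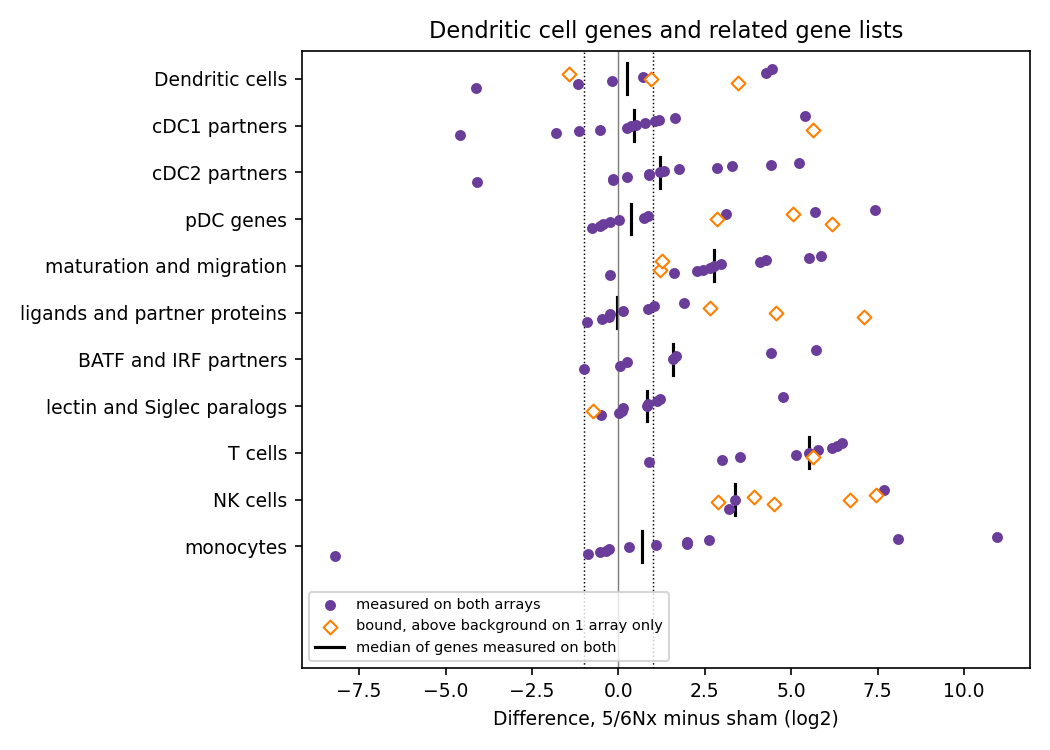
Differences, 5/6Nx minus sham (log2, horizontal axis), of the dendritic cell genes, 7 related gene lists and 3 marker lists (vertical axis). Purple points are genes measured on both arrays, orange diamonds are bounds for genes above background on 1 array only, black bars are list medians over the measured genes and dotted lines mark a 2-fold difference; the maturation list (median 2.77) and the T cell list (5.50) lie mostly right of the dotted line, whereas the dendritic cell genes (0.26) spread over both sides.

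The sort was labelled as monocytes, and all 12 monocyte genes were measured on both arrays, with summed signals of 1692 on the 5/6Nx array and 1399 on the sham array. Of these, 6 were higher and 1 lower by 2-fold or more, with Plac8 at 10.94 and Fn1 at -8.20. Of 7 B cell genes, 5 were measured and 2 were higher by 2-fold or more. The summed signals of the 5 were 2.86 on the 5/6Nx array and 1.22 on the sham array. Sums leave out genes not measured on both arrays. For 6 of 9 neutrophil genes they were 29.1 on the 5/6Nx array and 31.8 on the sham array. These close sums hide opposite differences, as 3 of the 6 were higher and 1 lower by 2-fold or more. Lcn2 stood at 7.31 and Mmp8 at -3.97, and the median of the 6 was 1.34. For 4 of 5 red pulp macrophage genes they were 174.7 on the 5/6Nx array and 96 on the sham array. For 3 of 5 plasma cell genes the summed signals were 48.9 on the 5/6Nx array and 39.4 on the sham array. Xbp1 was by far the brightest of the 3, at 23312 on the 5/6Nx array and 15321 on the sham array. By 2-fold or more, 1 of the 3 was higher and 1 lower. The other 2 plasma cell genes, Jchain and Tnfrsf17, were above background in 5/6Nx monocytes only. Jchain read 29381 on the 5/6Nx array and 7.89 on the sham array. Vcam1, the red pulp macrophage gene left out, read 1177 on the 5/6Nx array and 2.95 on the sham array. For 2 of 7 erythroid genes the summed signals were 3.34 on the 5/6Nx array and 0.624 on the sham array. Of the 7, 4 were not well above background on either. Cd24a is also known in B cells, neutrophils and erythroid cells, and the part of such cells in its reading was not tested.

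RefSeq promoter windows of 250 bases before to 50 bases after the start (GRCm38.p6) were available here for 7 of the 10 genes, namely Batf3, Zbtb46, Flt3, Clec9a, Xcr1, Cd209a and Siglech. The 3 motifs below were searched on both strands, the AP-1 motif TGANTCA that BATF and JUN dimers bind, an interferon response motif (GAAA, any 2 bases, GAAA) and an ETS-IRF motif (GGAA, any 2 bases, GAAA). The last 2 can overlap each other. Of all 32851 windows, 7.81% held the AP-1 motif, 3.44% the interferon motif and 2.72% the ETS-IRF motif. The Zbtb46 window held the AP-1 motif once, at position -61 from the start, and the Cd209a window held the ETS-IRF motif once, on the opposite strand at position -9. These windows are shown with the match in capitals.
Zbtb46, chr2:181424339-181424638 (GRCm38.p6, minus strand): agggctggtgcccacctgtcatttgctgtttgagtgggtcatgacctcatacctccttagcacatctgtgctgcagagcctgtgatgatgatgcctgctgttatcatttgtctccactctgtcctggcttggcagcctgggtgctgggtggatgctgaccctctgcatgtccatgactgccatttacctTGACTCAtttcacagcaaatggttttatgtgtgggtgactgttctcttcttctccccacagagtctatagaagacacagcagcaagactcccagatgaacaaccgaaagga
Cd209a, chr8:3748935-3749234 (GRCm38.p6, minus strand): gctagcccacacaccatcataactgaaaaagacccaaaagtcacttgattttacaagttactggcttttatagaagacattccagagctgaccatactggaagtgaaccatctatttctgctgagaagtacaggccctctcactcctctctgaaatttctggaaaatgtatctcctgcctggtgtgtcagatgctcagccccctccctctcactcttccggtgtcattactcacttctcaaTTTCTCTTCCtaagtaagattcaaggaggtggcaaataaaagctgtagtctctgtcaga
The windows of Batf3, Flt3, Clec9a, Xcr1 and Siglech held none of the 3 motifs. A match describes letters in the window and no binding was measured here. The windows follow annotated starts, and whether transcription began there in these cells was not measured.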

How the data were processed

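The authors deposited linear intensity values from Agilent Feature Extraction, whose processed signal is background-subtracted and detrended within each array, per the file headers, with no scaling between arrays. The software version is 9.5.1.1 per the submitters' processing notes and 10.7.1.1 in the parameter block. Both arrays shared a slide and a scan, per the file headers. Their value table of 52145 probes holds linear intensity values with a normalization not given in the sources used.

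Spots with an outlier flag (47 on the 5/6Nx array, 41 on the sham array) were left out, spots of a probe were averaged, and the log2 of the deposited intensity was centred on the 75th percentile of non-control spots of its array. No spot was saturated. Probes were named through a RefSeq table of GRCm38.p6 (32992 by accession, 10224 by symbol, 520 by synonym). The other 12867 were not counted among genes. Exon and UTR annotation on mm9 was not used here. Members and lists were chosen with earlier results of these data known. All members were named with every probe. From each partner list at most 4 genes with the largest absolute differences were named, with all ligands and partners, and at most 2 from each list of other cell types. Beyond that rule, some items were singled out after their values were seen. They are Cd8a, Irf8, Relb, Cd80, Mmp8, Xbp1, Hmox1, the genes detected on 1 array or on neither, and the Siglech run with the genes sharing it. Shared runs were searched with 15 bases on both strands.

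The alternatives were normexp (offset 50), scaling to the median, quantile and spike-in scaling, the authors' value table, a looser and no filter on dim probes, the mean over a gene's probes and outlier spots kept. Leaving out the bright Siglech probe was added after seeing the data. Python 3.11.15, pandas 2.3.3 and limma 3.58.1 under R 4.3.3 were used, and the steps were tested on simulated data.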

Additional observations from a re-analysis of the deposited data

How the results depend on the processing

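With 1 array per group no result has a replicate check, and dim probes limit what can be said of Zbtb46, Clec9a, Cd209a and Xcr1. No paired analysis was possible because each group has 1 array and the labels carry no shared replicate numbers. Over the 10 alternatives Batf3, Itgae and Clec10a kept their direction and stayed past 2-fold. Not every alternative could move each gene. Batf3, which has 1 probe, stayed at 4.28 under both filters, the mean over probes, outlier spots kept and the Siglech probe left out. Those settings therefore say little of its stability. With normexp the median of the measured dendritic cell genes was 0.07 and 1164 genes in all were at least 2-fold higher. With scaling to the median their median was 0.11. With spike-in scaling it was 0.64, 1 of the dendritic cell genes was at least 2-fold lower, and over all genes 3126 were higher and 919 lower. With no filter on dim probes 4 of the dendritic cell genes were at least 2-fold higher, their median was 0.74, and over all genes 3685 were higher and 2697 lower. That setting adds Zbtb46 (3.47), Clec9a (3.14), Xcr1 (0.75) and Cd209a (-1.66). Each has a reading not well above background on 1 array or on both, so the sizes of these differences are uncertain. For the other changes the cause was not tested.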
